A study of Mus musculus with 9 samples.

Results

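Genes of glucose uptake, glycolysis and glycogen metabolism were examined in differentiated cultures of C2C12 cells. C2C12, an established mouse line, grows as myoblasts and fuses into myotubes once serum is lowered. A list of 32 genes was matched by symbol to the array annotation, and every non-control probe set with exactly 1 symbol from the list was kept. This gave 50 probe sets for 29 of the 15964 genes that the arrays name in this way. Of the listed genes, Gapdh was named only by control probe sets or together with other symbols, and no non-control probe set had Eno1 or Gpi1 as its 1 symbol, so no signal of these genes was analysed here.

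All arrays were of a single condition: C2C12 cells after 5 days in DMEM with 2% horse serum and penicillin/streptomycin at 37 °C, with no genetic change or further treatment given in the labels. Total RNA at 2.0 ug per ul was hybridised to 9 Affymetrix arrays, 3 replicates on each of the designs U74Av2, U74Bv2 and U74Cv2. The labels give 1 sample identifier for all arrays and do not speak of separate cultures, so p-values measure only the spread between these arrays, which may be technical. There was no undifferentiated sample, so the arrays show which isoforms gave signal in differentiated cultures and not which ones changed on differentiation.

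Glycolysis splits glucose into pyruvate, and in working muscle much of that glucose comes from glycogen stored in the fibre itself. Many of its steps exist as several isoforms, with one gene used in most tissues and another taken over by mature muscle. In muscle differentiation the muscle isoforms of phosphofructokinase, phosphoglycerate mutase, enolase and glycogen phosphorylase are classical late markers, and their loss causes inherited muscle glycogenoses in humans.

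The values are signals of probe sets on a linear scale. Probes differ in affinity, so signals of different probe sets were not compared as levels. Each signal was set instead against a background limit of its own array, the 95th percentile of controls whose targets the sample should lack. A probe set was called detected if all 3 arrays of its design read above the limit, and a gene if at least 1 of its probe sets was. Where a gene had several probe sets, the one with the highest mean log2 multiple of the limit stood for it.

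Of the 29 genes, 24 (82.8%) were detected, where 62% of all genes were. By probe set, 32 of the 50 were detected, beside 49.1% of the 29131 probe sets with a single symbol, the rule for the members. Over all probe sets, with or without a single symbol, the share was 44.7%. Of the members, 27 of 36 were detected on U74Av2, where 58.2% of all probe sets were. The counts were 2 of 7 on U74Bv2, against 43.8%, and 3 of 7 on U74Cv2, against 31.6%. These percentages by design also include probe sets without a single symbol. The median multiple of the limit was 6.96 over the 29 genes and 2.74 over all genes, with 1.72 probe sets per gene among the members and 1.82 among all genes. The 5 genes that were not detected were the insulin-regulated glucose transporter Slc2a4, the aldolase Aldoc, the branching enzyme Gbe1, the liver phosphorylase Pygl, and Phkg1, the catalytic subunit of muscle phosphorylase kinase. A moderated one-sided test of log2 multiples against 0 (limma, fitted over all probe sets of a design with Benjamini-Hochberg adjustment) called the same 32 probe sets at an adjusted p below 0.05, and so the same 24 genes. It called 58.6% of all genes, 13228 of the 29131 probe sets with a single symbol and 41.1% of all probe sets. Its shares of all probe sets by design were 56.5% (U74Av2), 38.5% (U74Bv2) and 27.6% (U74Cv2). Its p-values pool the spread over all probe sets and take each array's limit as given, so they are smaller than 3 arrays alone would support, and they are printed only for genes with a mean within 4 times the limit.

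**Figure D1:**
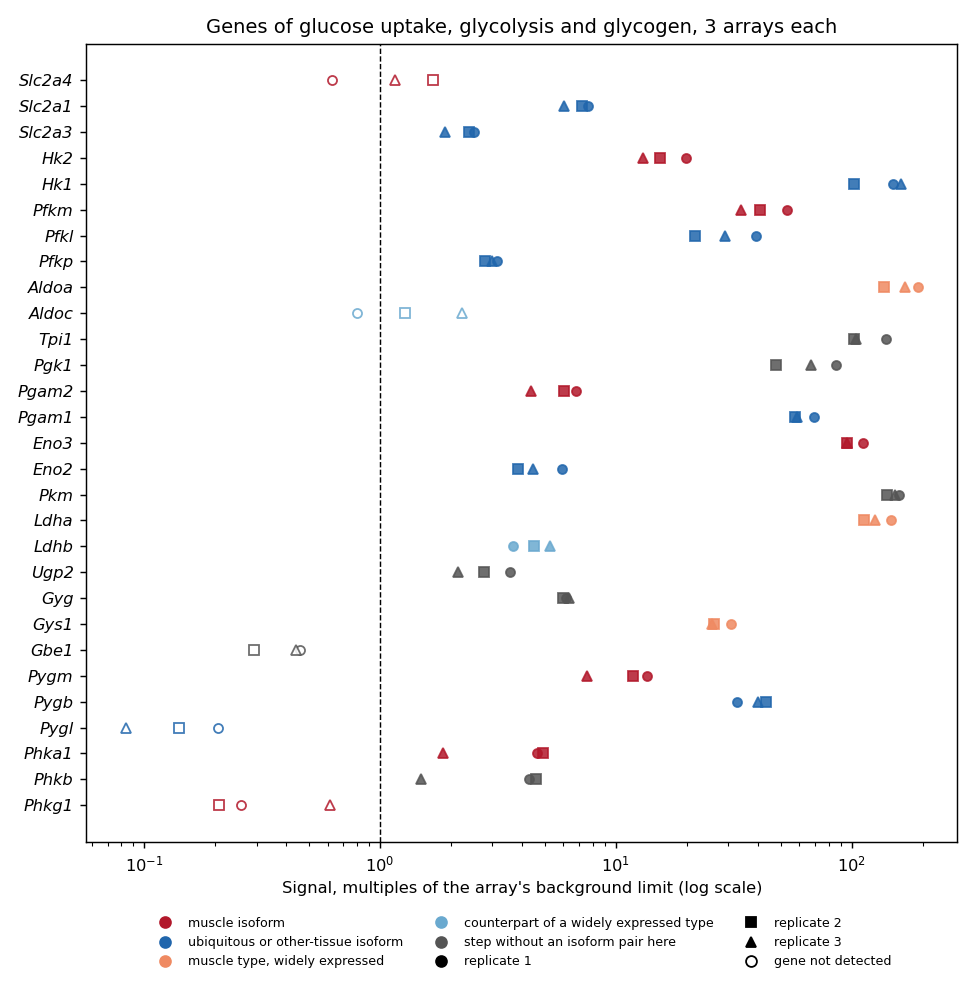
Signal of the 29 genes on the 3 arrays of the design that stood for each gene, as multiples of the background limit of that array on a log scale, ordered from glucose uptake to glycogen breakdown. Filled points mark detected genes, the dashed line is the limit, and colours give the isoform class; the 5 genes with open points are Slc2a4, Aldoc, Gbe1, Pygl and Phkg1.

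The cultures carried the signals of muscle. All 8 muscle markers examined were detected, from Ckm, the muscle creatine kinase, at 6.88 ± 1.94 times the limit to skeletal actin Acta1 at 298 ± 31 times (SD, n = 3). All 4 markers of cycling cells were also detected, among them Ccna2 at 9.92 ± 1.70 times. Of the adipocyte markers 1 of 4 was detected, of the endothelial 2 of 4, of the blood cell 2 of 3 and of the liver markers 0 of 3. Lpl, the lipoprotein lipase, was the adipocyte marker detected, at 7.86 ± 1.33 times the limit, while Adipoq, Pparg and Fabp4 lay below it on average. Of the blood markers Csf1r lay at 3.06 ± 1.77 times, with 3.81, 1.04 and 4.33 times on the 3 arrays. Cd68 lay at 1.44 ± 0.24 times and did not pass the moderated test (adjusted p = 0.0795, limma). Ptprc, found on all white blood cells, lay at 0.131 ± 0.032 times. The probe sets that stood for these 3 genes carry a suffix of possible cross-hybridisation. Both endothelial genes lay near the limit, Pecam1 at 1.39 ± 0.42 and Kdr at 1.31 ± 0.30 times, and neither passed the moderated test (adjusted p = 0.135 and 0.206, limma). The arrays read RNA of the whole culture, so fewer cells of a type and less RNA per cell cannot be told apart, and the part of cycling or other cells in the signals below was not tested.

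Gapdh, the dehydrogenase in the middle of the pathway, offered a check across designs, since control probe sets for its 5′ part, middle and 3′ part stand on all 9 arrays. On U74Av2 the control for the 5′ part read 75084, 73873 and 86472 signal units in replicates 1, 2 and 3. On U74Bv2 the same probes read 192095, 166790 and 197219, and on U74Cv2 424624, 374662 and 357722. The ranges of the designs did not overlap. Every array had been scaled to a common trimmed mean over its own probe sets, most of which differ between designs. The difference from U74Av2 on the log2 scale was 1.24 ± 0.18 on U74Bv2 and 2.30 ± 0.18 on U74Cv2 (SE, adjusted p = 3.3e-05, limma moderated F-test). Such a shift was general, since 63 of the 66 control probe sets shared by the designs (95.5%) passed that test and all 66 read higher on U74Bv2 and U74Cv2. As multiples of the limit the 5′ control came to 322 ± 52, 326 ± 105 and 461 ± 53 on the 3 designs (SD, n = 3), with overlapping ranges on U74Av2 and U74Bv2 and higher values on U74Cv2. Signals of members on different designs are therefore given as multiples of the limit only. The ratio of the 3′ to the 5′ Gapdh control lay between 0.827 and 0.906 on the 9 arrays.

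**Figure D2:**
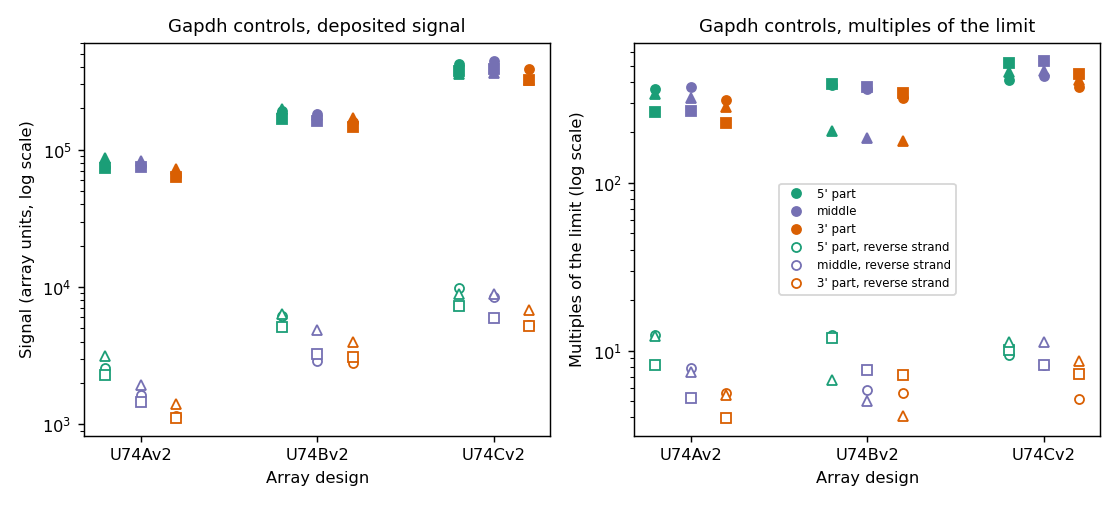
Control probe sets for Gapdh on the 9 arrays, as deposited signal (left) and as multiples of the array's background limit (right), both on log scales. Circles, squares and triangles are replicates 1, 2 and 3 and open points are the reverse-strand controls; the designs lie apart in signal and lie closer as multiples of the limit, 322, 326 and 461 on average for the 5′ part.

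Of the glucose transporters, Slc2a1 and Slc2a3 were detected and the insulin-regulated Slc2a4 was not. Slc2a1 (93738_at), GLUT1, which gives most cells their basal glucose supply, had signals of 1575, 2011 and 1555, or 7.66, 7.17 and 6.06 times the limit. Slc2a3, a high-affinity transporter best known from neurons, was detected by 1 of its 4 probe sets (93804_at), at 515, 668 and 485 signal units and 2.26 ± 0.32 times the limit (SD, n = 3). Set against the median signal of each array it lay at 1.37 times and did not pass the moderated test (adjusted p = 0.139, limma), and its probe set of highest mean signal, 170064_f_at on U74Cv2, lay at 0.977 times the limit. Slc2a4, GLUT4, moves to the surface of muscle and fat cells in response to insulin. Its probe set 102314_at read 130, 472 and 297, which was above the limit on 2 of 3 arrays, at 0.629, 1.68 and 1.16 times. The other one, 162385_i_at, lay above it on 1 array, at 1.20, 0.986 and 0.534 times. Slc2a4 thus gave no signal that could be told from the background (adjusted p = 0.622, limma), with a 95% interval of the mean log2 multiple from -0.55 to 0.75 for 102314_at. Without replicate 1 its mean was 1.42 times the limit and without replicate 2 it was 0.894 times.

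Both hexokinases and all 3 phosphofructokinases were detected. Hk2 (94375_at), the hexokinase of insulin-responsive muscle, read 4105, 4330 and 3352 signal units, 16.2 ± 3.5 times the limit (SD, n = 3). Hk1 (99335_at), the form of brain and most other tissues, read 30770, 28821 and 41420, 138 ± 31 times. A further probe set of Hk2, 161313_at, stayed below the limit on all 3 arrays, at 0.147 ± 0.196 times, so the call for Hk2 rests on 1 probe set. Among the phosphofructokinases, which catalyse the committed step, the muscle form Pfkm (94438_at) read 10972, 11478 and 8718, or 42.7 ± 9.8 times the limit. The liver form Pfkl (92637_at) read 8059, 6059 and 7445, or 29.9 ± 8.8 times, and the platelet form Pfkp (97833_at) 648, 781 and 767, or 2.97 ± 0.18 times. Pfkp was also detected by 97834_g_at, but its U74Bv2 probe set 164250_at lay at 0.324, 1.40 and 0.683 times and was not. The muscle isoform of either step was therefore accompanied by its counterparts.

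In lower glycolysis every measured step gave signal. Aldoa (160090_f_at), the aldolase of muscle and of most other cells, read 39320, 38438 and 43242, 166 ± 27 times the limit (SD, n = 3). Its brain counterpart Aldoc (160546_at) read 165, 357 and 570, at 0.802, 1.27 and 2.22 times the limit, and was above it on 2 of 3 arrays (adjusted p = 0.176, limma). Without replicate 1 its adjusted p was 0.0159 (limma). The steps that have no muscle isoform on the list were detected too. Tpi1 (99566_at), triosephosphate isomerase, read 28697, 28649 and 26666, 115 ± 21 times the limit. Pgk1 (93346_at), phosphoglycerate kinase, read 17622, 13449 and 17296, 67.0 ± 18.8 times. A second probe set of Pgk1 on U74Bv2, 164545_f_at, lay close to the limit at 1.12 ± 0.20 times and above it on 2 of 3 arrays. All 3 probe sets of Pkm, pyruvate kinase of muscle and most other tissues, were detected, at 151 ± 9, 78.0 ± 13.3 and 13.2 ± 2.0 times. The highest of these, 96066_s_at, read 32746, 39508 and 39396. All of them have a suffix for possible cross-hybridisation, and the annotation names the gene without its splice form.

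Phosphoglycerate mutase and enolase have the clearest muscle isoforms of the pathway. Pgam2 (92599_at), found in mature muscle, read 1399, 1688 and 1120 signal units, 5.73 ± 1.24 times the limit (SD, n = 3). Pgam1 (160091_at), the form of most tissues, read 14241, 16076 and 15044, 61.7 ± 6.5 times. Both were above the limit on every array. Eno3 (96344_at), beta-enolase of muscle, read 22909, 26932 and 24428, 101 ± 9 times the limit. Eno2 (99045_at), gamma-enolase, known as a neuronal marker, read 1224, 1080 and 1149, 4.76 ± 1.07 times. The other listed counterpart, Eno1, had no signal analysed, so Eno3 was set beside the neuronal form only.

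At the exit to lactate, Ldha (96072_at), the M subunit that dominates in fast muscle, read 30245, 31546 and 32328, 129 ± 17 times the limit (SD, n = 3). Ldhb (101990_at), the H subunit of heart, read 754, 1260 and 1352, or 4.48 ± 0.80 times. A further probe set of Ldhb (161945_at) was not detected, at 0.286 ± 0.256 times. Both subunits thus gave signal, Ldhb by 1 of 2 probe sets.

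Glycogen genes were detected for synthesis and for breakdown, but not for the branching enzyme, the liver phosphorylase or the muscle form of the catalytic subunit of phosphorylase kinase. On the side of synthesis, Ugp2 (94481_at), which makes UDP-glucose, read 736, 778 and 549, 2.83 ± 0.72 times the limit (SD, n = 3). Set against the median signal of each array it lay at 1.27 times and did not pass the moderated test (adjusted p = 0.0836, limma). Glycogenin, Gyg, the protein primer of the particle, was detected by both of its probe sets, at 6.16 ± 0.18 and 5.30 ± 1.60 times. Gys1 (98496_at), glycogen synthase of muscle and most tissues other than liver, read 6341, 7297 and 6574, 27.5 ± 2.9 times. Gbe1 (96803_at), the branching enzyme, read 94.4, 82.1 and 113, below the limit on all 3 arrays at 0.397 ± 0.091 times. It was read by 1 probe set.

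Of the phosphorylases, Pygm (160754_at), the muscle form missing in McArdle disease, read 2795, 3306 and 1941, 11.0 ± 3.1 times the limit (SD, n = 3). Its probe set on U74Cv2, 171430_at, was below the limit on all 3 arrays, at 0.144 ± 0.060 times. Pygb, the brain form, was detected by all 3 of its probe sets, at 4.51 ± 0.70 times the limit on U74Av2 (97489_at) and at 3.45 ± 0.75 and 38.9 ± 5.5 times on U74Cv2 (136280_at and 168421_f_at). Pygl, the liver form, was not detected by either of its probe sets, at 0.144 ± 0.061 and 0.039 ± 0.020 times. The phosphorylases detected were thus those of muscle and brain.

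Phosphorylase kinase, which switches phosphorylase on, consists of regulatory alpha and beta subunits, calmodulin as the delta subunit, and a catalytic gamma subunit. Phka1, the muscle alpha subunit, was detected by both probe sets, at 3.80 ± 1.69 times the limit on U74Bv2 (164080_at, adjusted p = 0.00031, limma) and at 1.58 ± 0.25 times on U74Av2 (92519_at). Phkb, the shared beta subunit, was detected on U74Bv2 (109086_at) at 3.46 ± 1.71 times (adjusted p = 0.0011, limma), while its U74Av2 probe set 96722_at lay at 0.289 ± 0.055 times. On the arrays of replicates 1, 2 and 3 the U74Bv2 probe set of Phka1 lay at 4.64, 4.91 and 1.85 times the limit and that of Phkb at 4.29, 4.61 and 1.49 times. The limit of replicate 3 on that design was 963 signal units, beside 498 and 430 in replicates 1 and 2. Neither passed the moderated test with 2 arrays where replicate 1 or replicate 2 was left out, although the multiples changed little. Phka1 then lay at 3.38 or 3.24 times (adjusted p = 0.222 or 0.097, limma) and Phkb at 3.05 or 2.89 times (adjusted p = 0.277 or 0.149, limma). Phkg1 (97094_at), the muscle gamma subunit, read 53.2, 58.2 and 157, or 0.258, 0.208 and 0.613 times the limit. The liver subunits, which stand among the other pathway genes, were both detected on U74Av2. Phkg2 (97971_at) lay at 5.46, 3.17 and 3.80 times the limit and Phka2 (104003_at) at 5.34, 4.57 and 5.27 times. For the catalytic subunit the liver gene and not the muscle gene was therefore above the limit, each read by 1 probe set.

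Set side by side, 6 of 8 muscle isoforms were detected (Hk2, Pfkm, Pgam2, Eno3, Pygm and Phka1, but not Slc2a4 and Phkg1). Of their ubiquitous or other-tissue counterparts 8 of 9 were (Hk1, Pfkl, Pfkp, Pgam1, Eno2, Pygb, Slc2a1 and Slc2a3, but not Pygl). The share of all genes was 62%, and no test was made between the classes. On U74Av2 alone 6 of 8 muscle isoforms and 8 of 8 counterparts were detected, where 66.6% of all genes on that design were. Without replicate 1 the count of muscle isoforms was 7, since Slc2a4 lay above the limit on the other 2 arrays.

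The muscle isoforms tended to read low on the arrays of replicate 3. Of the 6 detected muscle isoforms, 5 had their lowest signal in replicate 3, where 37% of all detected genes did (by probe set 35.7% on U74Av2, 36.7% on U74Bv2 and 33.8% on U74Cv2). Pygm lay at -0.43 from its own mean on the log2 scale in replicate 3, Pgam2 at -0.30, Pfkm at -0.24, Hk2 at -0.22 and Phka1 at -0.21, although the second probe set of Phka1, on U74Av2, was highest there. Eno3 was the exception, at -0.02 in replicate 3 with its lowest signal in replicate 1. Of the 8 detected counterparts 2 were lowest in replicate 3, both of them transporters, Slc2a3 at -0.18 and Slc2a1 at -0.13. Pygb stood here by its U74Cv2 probe set 168421_f_at; its other probe sets were both lowest in replicate 3, and over all detected probe sets of the counterparts 4 of 11 were. Hk1 went the other way, with its highest signal in replicate 3, at 0.32. The median deviation in replicate 3 was -0.23 for the muscle isoforms and -0.003 for the counterparts, and it was -0.002 over all detected probe sets of U74Av2. Phka1 was read on U74Bv2, and the replicate numbers are not known to stand for the same RNA across designs. Of the genes represented by a U74Av2 probe set, 4 of 5 muscle isoforms were lowest in replicate 3, with a median of -0.24, and 2 of 7 counterparts. Phka1 and Pygb, left out of these counts, also had a detected probe set on U74Av2. In replicate 3 that of Phka1 (92519_at) lay at 0.11 and that of Pygb (97489_at) at -0.12, its lowest. With 1 array per replicate and design the difference between the classes could not be tested.

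**Figure D3:**
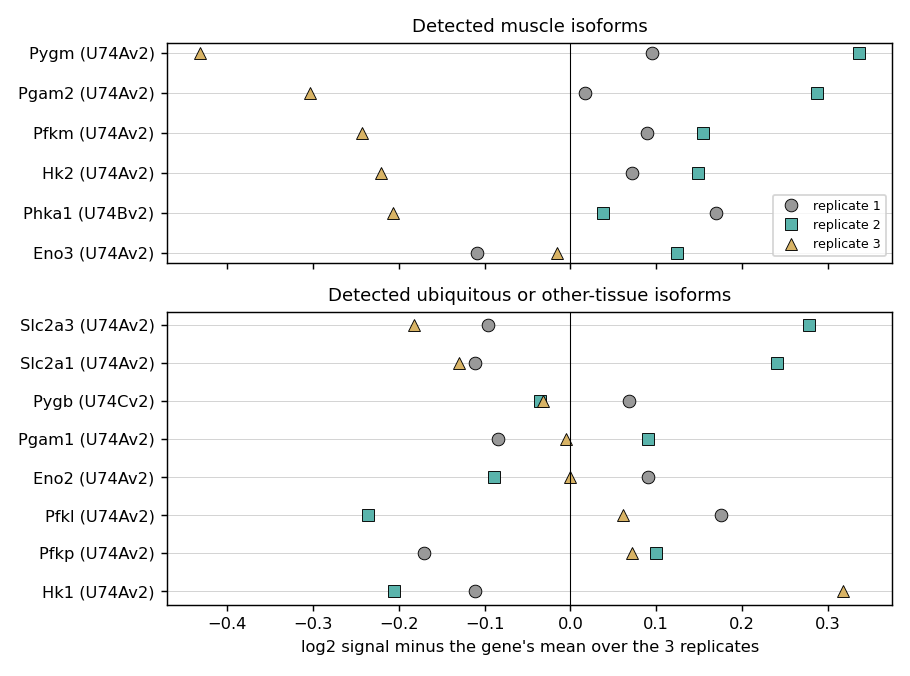
Deviation of each detected isoform's log2 signal from its mean over the 3 replicates, for 6 muscle isoforms (top) and 8 ubiquitous or other-tissue isoforms (bottom), with the design of the probe set in brackets. Triangles mark replicate 3, which lies to the left of both other replicates for 5 of the 6 muscle isoforms and for 2 of the 8 counterparts.

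Of the 6 detected genes of steps without an isoform pair, 3 were lowest in replicate 3, Phkb at -0.34, Ugp2 at -0.31 and Tpi1 at -0.07, and the median was 0.01. Gyg lay at 0.10 there, Pgk1 at 0.11 and Pkm at 0.09. The 3 muscle-type enzymes that most cells also use did not, with Aldoa at 0.10, Ldha at 0.04 and Gys1 at -0.03. Muscle markers outside the pathway were mixed, with 5 of 8 lowest in replicate 3, Tnnt3 at -0.27 and Myh3 at -0.21, but Acta1 at 0.10 and Myog at 0.02. Ribosomal RNA moved with the replicates as well, since the 3′ control for 18S RNA was 37592, 62249 and 95512 units on U74Av2 in replicates 1, 2 and 3. It was 82234, 134340 and 232329 units on U74Bv2 and 178378, 225839 and 407686 on U74Cv2, again highest in replicate 3. Its part in the deviations was not tested. The 3 arrays of U74Av2, whose probe sets stood for 5 of the 6 muscle isoforms, had been run on fluidics station 1. On U74Bv2 and U74Cv2 replicate 1 had been run on station 1 and replicates 2 and 3 on station 2. The part of the station in the deviations was not tested.

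Upstream sequences of 5 genes are given, so that the muscle isoforms Pgam2 and Eno3 can be set beside Pgam1 and the neuronal Eno2. Eno1, the other listed counterpart of Eno3, is not shown. Pygm was added as the isoform that read lowest in replicate 3. The sequences are the 250 bases before the annotated start from RefSeq (GRCm38.p6), in the direction of transcription. Each E-box core CANNTG is in capitals, the letters that myogenic factors bind among others.
Pgam2 (chr11:5803797-5804046, minus strand): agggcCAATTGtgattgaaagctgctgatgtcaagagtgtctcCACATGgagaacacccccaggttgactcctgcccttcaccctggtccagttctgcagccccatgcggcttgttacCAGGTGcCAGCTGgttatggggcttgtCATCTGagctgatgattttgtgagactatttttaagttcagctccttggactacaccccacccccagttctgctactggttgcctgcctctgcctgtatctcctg
Pygm (chr19:6384158-6384407, plus strand): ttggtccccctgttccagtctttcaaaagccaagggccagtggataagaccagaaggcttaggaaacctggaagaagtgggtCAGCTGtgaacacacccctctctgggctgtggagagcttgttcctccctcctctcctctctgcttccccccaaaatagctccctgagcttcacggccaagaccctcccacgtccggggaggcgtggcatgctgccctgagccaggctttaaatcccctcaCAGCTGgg
Eno3 (chr11:70656926-70657175, plus strand): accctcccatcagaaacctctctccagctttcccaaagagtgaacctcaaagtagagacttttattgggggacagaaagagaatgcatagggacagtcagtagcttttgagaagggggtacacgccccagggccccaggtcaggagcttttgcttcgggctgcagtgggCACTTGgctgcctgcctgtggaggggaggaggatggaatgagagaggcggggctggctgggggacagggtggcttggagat
Pgam1 (chr19:41911621-41911870, plus strand): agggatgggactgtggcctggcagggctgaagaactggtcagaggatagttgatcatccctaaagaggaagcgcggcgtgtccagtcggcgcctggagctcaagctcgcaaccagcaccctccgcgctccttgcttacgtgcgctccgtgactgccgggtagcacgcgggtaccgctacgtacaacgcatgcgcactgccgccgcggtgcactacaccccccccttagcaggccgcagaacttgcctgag
Eno2 (chr6:124769674-124769923, minus strand): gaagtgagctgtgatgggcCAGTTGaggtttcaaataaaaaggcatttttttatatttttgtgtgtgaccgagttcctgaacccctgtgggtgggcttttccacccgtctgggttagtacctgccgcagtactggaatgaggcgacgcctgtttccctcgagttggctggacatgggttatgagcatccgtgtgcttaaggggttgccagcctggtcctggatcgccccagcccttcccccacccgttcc

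The upstream sequence of Pgam2 held 5 such cores, that of Pygm 2, those of Eno3 and Eno2 1 each, and that of Pgam1 none. In Pgam2 they began at positions -245, -207, -132, -125 and -105 from the start, and the core at -125 had the letters CAGCTG, as did both cores of Pygm at -168 and -8. A match to the MEF2 consensus, the site of the partners of the myogenic factors, lay at -80 in Pgam2. The table held 42 upstream sequences for 30 of the listed genes, with several starts for some, and none for Slc2a3 and Slc2a4. They include Eno1, counted with the counterparts and holding 2, 0 and 0 CANNTG cores at its starts, and Gpi1. No signal of Eno1 or Gpi1 was analysed. Each start was counted as 1 sequence, so a gene with several starts, some of them overlapping, counts more than once. The 10 sequences of muscle isoforms came from 7 genes, with several starts of Pfkm. The 12 of the counterparts came from 9 genes, with several starts of Eno1 and Hk1. On both strands, CANNTG was present in 8 of 10 sequences of muscle isoforms, in 5 of 12 of the counterparts and in 66.2% of all 32851 sequences of that length. CAGCTG, a subset of these, was present in 3 of 10, 0 of 12 and 13.0%, and a MEF2 match in 1 of 10, 0 of 12 and 2.92%. ACGTG, the core of the element bound by hypoxia-inducible factors, which overlaps CANNTG in the letters CACGTG, was present in 4 of 10, 4 of 12 and 16.6%, and TATAAA in 0 of 10, 1 of 12 and 12.4%. These are matches of letters and carry no statement on binding.

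Probe sets of the same gene did not always give the same call. Of the 16 genes with more than 1 probe set, 5 had all of them detected, 8 had some and 3 had none. Among all genes 49.1% of the probe sets with a single symbol were detected, and the same count by gene was not made. Whether the members differ in this from other genes was therefore not tested. Those with all detected were Aldoa, Pkm, Gyg, Pygb and Phka1. The probe sets of Hk2, Pygm, Gys1, Ldhb and Phkb fell on both sides of the limit with clear gaps, for instance 11.0 and 0.144 times for Pygm and 27.5 and 0.449 times for Gys1. Of the 50 probe sets 12 carry a suffix of possible cross-hybridisation. Without these, Aldoa and Pkm had no probe set left, and 22 of 27 genes were detected.

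**Figure D4:**
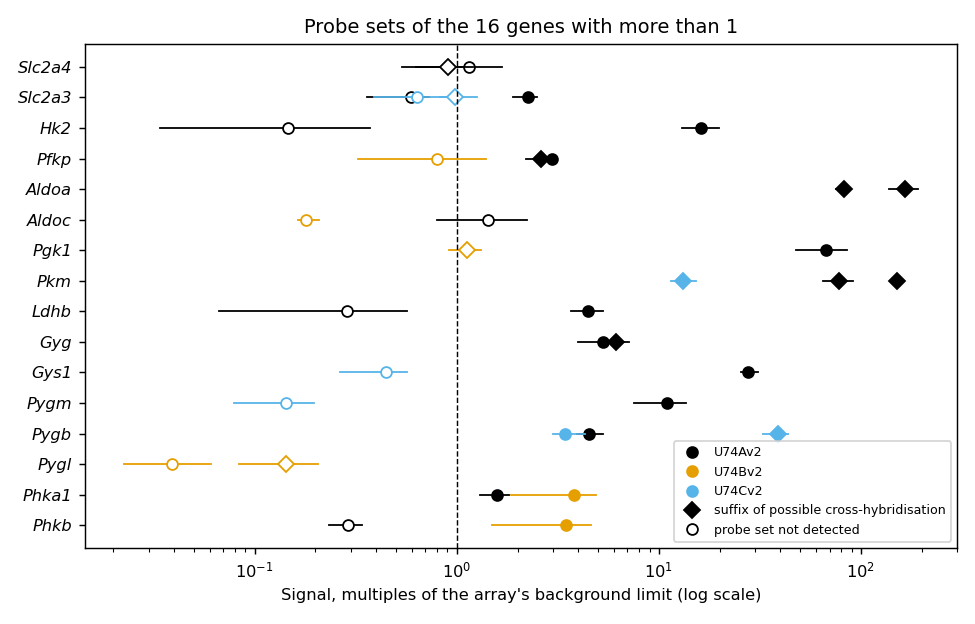
Mean signal of each probe set of the 16 genes with more than 1, as multiples of the background limit on a log scale, with lines from the lowest to the highest of its 3 arrays. Colours give the design, diamonds a suffix of possible cross-hybridisation and open symbols probe sets that were not detected; for 8 genes filled and open symbols stand in the same row.

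Around the pathway, 42 of 61 other genes of glucose and glycogen metabolism were detected (68.9%, against 62% of all genes). The list of isozymes proper to other tissues gave the lowest count, 5 of 14. Neither the glucose transporter of liver and islets, Slc2a2, nor the glycogen synthase of liver, Gys2, was detected, at 0.314 ± 0.208 and 0.186 ± 0.064 times the limit (SD, n = 3), and the testis forms Ldhc and Pgk2 lay at 0.054 ± 0.012 and 0.408 ± 0.097 times. The 5 detected genes were Phka2, Phkg2, Hk3, Slc2a5 and G6pc. G6pc (103333_at), the glucose-6-phosphatase of liver and kidney, read 627, 717 and 888, or 3.02 ± 0.45 times the limit, by its 1 probe set.

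Genes that lead pyruvate onward were detected in 11 of 13 cases (84.6%, against 62% of all genes). The highest multiples were those of Pdha1 and Dld, subunits of pyruvate dehydrogenase, at 37.9 ± 6.5 and 24.4 ± 4.6 times the limit, and of Pdhb at 22.5 ± 6.6 times (SD, n = 3). The lactate exporter of glycolytic muscle, Slc16a3 (112405_at), was detected at 3.04 ± 1.16 times. The transporter Slc16a1 (101588_at), which favours uptake in oxidative tissue, was above the limit on 1 array only, at 1.43, 0.809 and 0.713 times, and the kinase Pdk2 was not detected either. Of the glycogen accessory genes 10 of 14 were detected (71.4%, against 62% of all genes). Gsk3a, a kinase of glycogen synthase, lay at 51.9 ± 17.8 times the limit. The lysosomal glucosidase Gaa lay at 31.6 ± 5.9 times and the phosphoglucomutase Pgm1 at 23.9 ± 5.2 times. Pgm2l1, Ppp1r3c, Ppp1r3d and Nhlrc1 were not detected.

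Branches of the pathway gave 7 of 8 genes (87.5%, against 62% of all genes). Pgls lay at 17.7 ± 3.8 and Pgd at 16.2 ± 1.9 times the limit, both of the pentose phosphate pathway. Gfpt1, the entry to hexosamines, lay at 15.8 ± 6.9 times (SD, n = 3). Gfpt2 was not detected. Of the genes that control glycolysis 9 of 12 were detected (75%, against 62% of all genes). The moderated test called 7 of the 12, where it called 58.6% of all genes. Pfkfb2 and Tigar were detected but did not pass it (adjusted p = 0.125 and 0.0725, limma). Hif1a (98628_f_at) lay at 59.2 ± 7.4 times, its partner Arnt at 19.4 ± 7.5 times and Txnip, a glucose-induced brake on uptake, at 16.0 ± 5.0 times. Epas1, Mlxipl and Fbp2, the fructose bisphosphatase of muscle, were not detected, and Fbp2 lay at 0.222 ± 0.054 times.

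The median SD of log2 signal was 0.173 over the 32 detected probe sets. From 2 arrays it was 0.124 without replicate 1, 0.137 without replicate 2 and 0.0972 without replicate 3. The median of an SD from 2 values tends to lie below that from 3. A lower value from 2 arrays therefore says nothing by itself about the replicate left out. Values from 2 arrays were not computed over all detected probe sets. Over all 3 replicates the median of the members stood beside 0.154, 0.178 and 0.238 over all detected probe sets of U74Av2, U74Bv2 and U74Cv2. The members with the least spread were Ldha (0.049), Pfkp by 97834_g_at (0.054), Pygb by 168421_f_at (0.059), Pkm by 162032_f_at (0.060) and Tpi1 (0.060). Ldhb (0.459), Pygm (0.393) and Phkb (0.303) had the most among detected probe sets. Ldhb was lowest in replicate 1 and Pygm and Phkb in replicate 3.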

How the data were processed

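RNA of C2C12 cells had been hybridised to 9 arrays of 3 designs, which form the groups. The authors deposited 1 linear intensity per probe set, computed with MAS5 per the submitters' processing notes, which name no version or settings. The 2% trimmed mean lay between 1500.33 and 1500.95 on every array, the mark of a common scaling target. Chip type and fluidics station were read from the deposited instrument files. Gene symbols came from the platform annotation, and promoter sequences from RefSeq (GRCm38.p6).

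The limit of each array was the 95th percentile of its bacterial (Dap, Lys, Phe, Thr, Trpn) and reverse-strand controls. Families of controls with a median over that of the design were dropped, which left 20, 20 and 17 control probe sets. It was 206 to 280 signal units on U74Av2, 430 to 963 on U74Bv2 and 725 to 1034 on U74Cv2. The number of arrays limits the precision. Tests used limma 3.58.1 in R 4.3.3 and were tested on simulated data; other steps used Python 3.11.15, pandas 2.3.3 and matplotlib 3.10.9.

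The members and all gene lists were chosen with earlier results of these data known. All members are named; of each other pathway list, the rule named the 3 detected genes with the highest multiple and, where 6 or fewer, those not detected. Genes of the other-tissue list beyond these, Slc16a3 and markers were chosen after their values were seen. The alternatives were another limit, another call, another choice of probe sets, quantile normalization and leaving out each replicate; 2 were added after seeing the data (centring the arrays, and all detected probe sets, for the replicate deviations).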

Additional observations from a re-analysis of the deposited data

How the results depend on the processing

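The counts of detected genes stayed within 1.5 times their value under every alternative run. Between 22 and 26 of the member genes, 6 or 7 muscle isoforms and 7 or 8 counterparts were detected, and between 24 and 34 probe sets. The share of all genes moved with these settings, from 55.4% to 66.6%, and that of all probe sets from 41.1% to 50.1%. The lowest counts were of fewer members, since without cross-hybridisation suffixes 22 of 27 genes and 24 of 38 probe sets were detected. Leaving out 1 replicate gave 24 to 26 genes, 32 to 34 probe sets, 6 to 7 muscle isoforms and 8 counterparts. Set against the median of each array in place of the controls, the median multiple of the 29 genes was 3.17, and without 1 replicate it was 6.62 to 7.41.

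Of single genes, Slc2a4 lay at 0.557 times that median and Aldoc at 0.668 times, and leaving out 1 replicate gave 0.894 to 1.42 times the limit for Slc2a4, lowest without replicate 2. Against the median, Slc2a3 and Ugp2 did not pass the moderated test (adjusted p = 0.139 and 0.0836, limma), and Aldoc passed it without replicate 1 (adjusted p = 0.0159, limma). Slc2a3 lay at 0.977 times when its probe set of highest mean signal, on U74Cv2, stood for it. Phka1 and Phkb did not pass the moderated test without replicate 1 or 2 (adjusted p between 0.097 and 0.277, limma), with multiples of 3.38 and 3.24 for Phka1 and 3.05 and 2.89 for Phkb, beside 3.80 and 3.46 over all arrays. The median SD of log2 signal was 0.0972 to 0.137 without 1 replicate, lowest without replicate 3. It was 0.173 from 3 arrays, where such a median tends to be higher than from 2.

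Under quantile normalization and with arrays centred on their medians, 5 of 6 muscle isoforms and 2 of 8 counterparts were lowest in replicate 3. Over all detected probe sets, 5 of 7 of the muscle isoforms and 4 of 11 of the counterparts were. Among shared controls above the limit on at least 3 arrays, 37 of 39 differed between designs, and without 1 replicate 58 to 63 of 66 did. With the replicate number as a block (replicate block) 64 of 66 did. The labels number the replicates alike on all designs. Deviations of same-numbered arrays correlated at -0.10 for replicate 2 of U74Bv2 and U74Cv2 and between 0.12 and 0.53 otherwise, over the 66 controls. Arrays of unlike number were not compared, so these values could not decide whether the numbers pair the arrays. No pairing was assumed. A gene below the limit may still be transcribed, since the limit marks only what these arrays could tell from background.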
